A study of Homo sapiens with 22 samples.

Results

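Messenger RNA of 10 genes for readers of methylated lysine 36 on histone H3 (H3K36) was followed through RPTEC, a line of human renal proximal tubule epithelial cells immortalized with hTERT. The genes were PSIP1, MORF4L1, MSH6, DNMT3A, DNMT3B, ZMYND11, BRPF1, GLYR1, PHF1 and IWS1, taken as a named list of proteins that bind the mark or act with SETD2 during elongation, and each had 1 of the 36859 rows of the deposited table. All 10 exceeded the filter of 10 normalized counts in 2 libraries, so that each was among the 14585 genes tested.

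The study asked what loss of SETD2 does to RPTEC and compared it with TGF-β treatment and with SETD2 rescue. The 22 RNA-seq libraries formed 11 groups of 2 replicates: WT, WT with TGF-β, KO1, KO2, KO2_Rescue, Rescue1, Rescue2, and WT transduced with eGFP (labelled empty vector), SOX2, OCT2 or PRRX1. WT, KO1, KO2 and KO2_Rescue were in 2% serum. The WT with TGF-β had 24 h in 2% serum and then 10 ng/mL TGF-β for 72 h. Rescue1, Rescue2 and the 4 transduced WT cultures were in regular medium with 10% serum. All lines carried hTERT under 250 µg/mL G418, and blasticidin at 5 µg/mL kept the SETD2 construct in the rescue lines. KO1 and KO2 are each a single clone with CRISPR frameshifts in SETD2, Rescue1 and Rescue2 are single-cell clones with a lentiviral FLAG-tagged full-length SETD2, and the transduced WT cultures are selected bulk populations. The labels of Rescue1 and Rescue2 name no parent clone, and KO2, from which the name KO2_Rescue derives, was taken as their control. Nothing in the labels says that the replicates of a group were separate cultures, so the p-values measure the spread between these libraries, which may be technical.

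SETD2 is the methyltransferase that places the third methyl group on H3K36 behind elongating RNA polymerase II. Readers recognize the methylated lysine mostly through a PWWP domain, a Tudor domain or a chromodomain, and they bring DNA methylation, mismatch repair, acetylation, deacetylation or control of elongation to transcribed gene bodies. SETD2 is a recurrent target of mutation in clear cell kidney cancer, which arises from the proximal tubule.

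SETD2 mRNA itself was 1852 and 2061 normalized counts in WT, 1046 and 1130.0 in KO1, 1049.8 and 1052 in KO2, 9764 to 10445 in the rescue clones, 2702 to 3128 in the transduced WT and 834 and 819.6 in the libraries labelled KO2_Rescue. The last pair was the lowest of all groups, which goes against its label, so these libraries are given only as labelled and enter no rescue comparison. Library totals were 11674500 to 16758600 normalized counts and duplicates differed by a median absolute log2 value of 0.0644 (SOX2) to 0.181 (WT). The WT pair was the furthest apart and also differed in the summed count of 6 fibroblast markers (12429 and 829), and values without 1 WT library are given where that changes the call of a reader. PAX8, a renal lineage factor, was at 1535 to 6561, whereas LRP2 and SLC34A1, which define the differentiated proximal tubule, reached no more than 2.29 and 8.47. Of the other cell types, 5 leukocyte markers summed to 7.95 to 27.7 normalized counts per library. CD3E was at 0 in all 22, and CD14, at 0 in WT and at most 13.2, passed as higher with TGF-β, in KO1 (also against KO2) and with eGFP, on a few reads. Several genes that every cell uses were also near 0 in the table (POLR2A 0 to 117, LEO1 0 to 3.49), so a low value here does not by itself show low expression.

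Per kilobase of transcript, MORF4L1 was the most abundant reader in WT at 3314 normalized counts, followed by ZMYND11 at 423, MSH6 at 381, PSIP1 at 261, DNMT3B at 218, GLYR1 at 181, BRPF1 at 126 and DNMT3A at 19.1. IWS1 and PHF1 were lowest, at 5.19 and 4.64. The spread between duplicates differed by gene: the median absolute log2 difference within a group was 0.0525 for ZMYND11 and 0.0550 for DNMT3B, and it was 0.407 for PSIP1, 0.541 for PHF1 and 0.619 for IWS1.

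**Figure D1:**
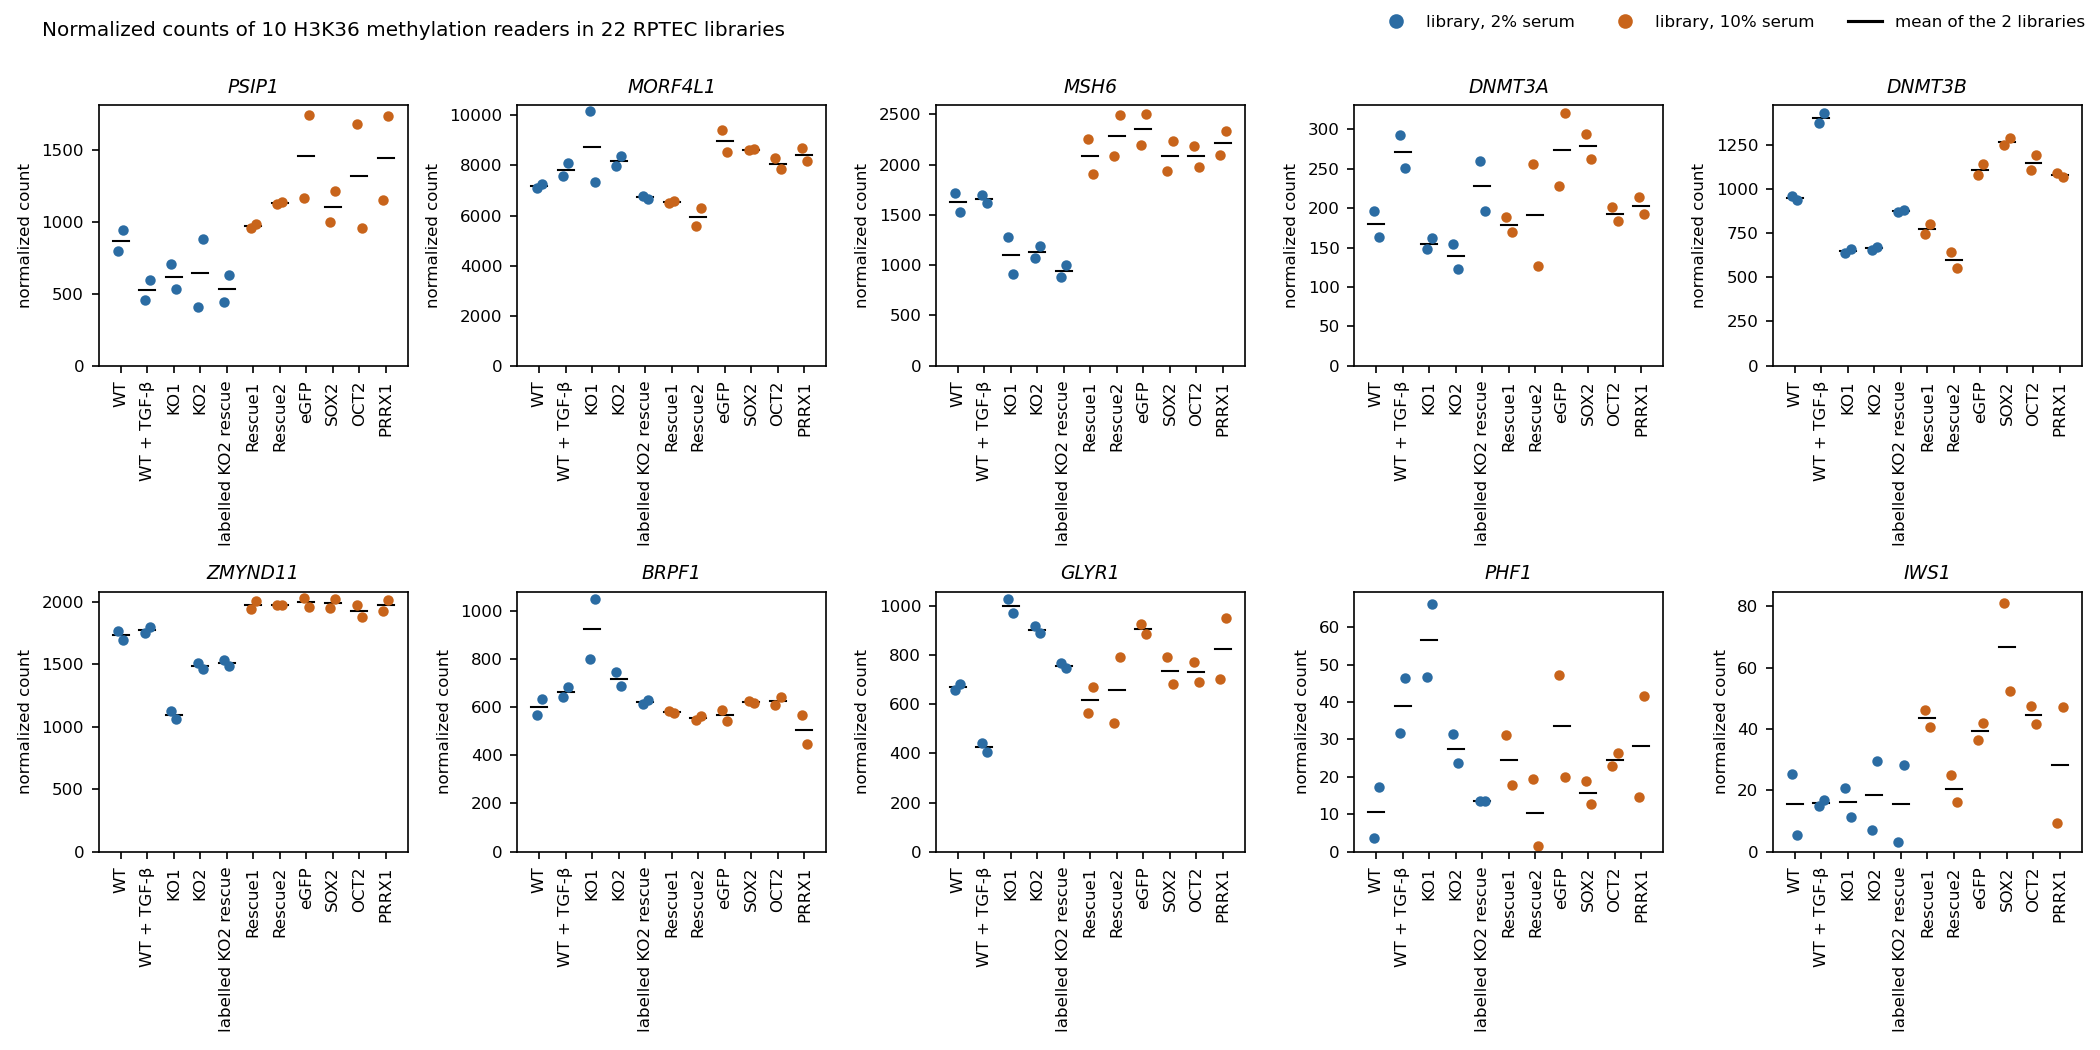
Each panel plots 1 reader gene, with normalized counts on the y axis and the 11 groups on the x axis. Points are libraries (blue, 2% serum; orange, 10% serum) and black lines are the means of 2 libraries; ZMYND11 falls to 1062 and 1129.7 in KO1, DNMT3B peaks at 1374 and 1428 with TGF-β, and PHF1 and IWS1 stay under 100 normalized counts.

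Loss of SETD2 was accompanied by changes in both directions among the readers. Against WT, MSH6, DNMT3B and ZMYND11 were lower in KO1 and in KO2, whereas BRPF1, GLYR1 and PHF1 passed as higher in KO1 alone, without a difference between the clones that passed (log2 change 0.36, 95% interval 0.07 to 0.64, adjusted p = 0.0849 for BRPF1; log2 change 0.14, 95% interval -0.22 to 0.51, adjusted p = 0.632 for GLYR1; adjusted p = 0.488 for PHF1). In KO1, 6 of 10 readers passed an adjusted p of 0.05 in limma, where 39.8% of all genes tested did. The 3 higher ones compare with 19.0% of all genes higher and the 3 lower ones with 20.8% lower, and 1 (PHF1) also exceeded 2-fold, where 25.0% of all genes did. In KO2, 3 of 10 passed, where 28.9% of all genes did, and all 3 were lower, where 13.7% of all genes were. For the mean of both clones 6 of 10 passed, where 38.0% of all genes did, with 3 higher and 3 lower (background 19.0% each way) and 1 past 2-fold (background 21.2%). The passing shares are above those of all genes in KO1 and the KO mean and close to that of all genes in KO2. The shares past 2-fold are below those of all genes, and no reader passed as higher in KO2, where 15.3% of all genes did. A single gene is 1 of 10 here, and nothing particular to the readers is read from these shares. The median log2 change of the 10 was -0.03, beside -0.01 for all genes.

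How libraries are scaled bears on the genes that were higher. When every library was scaled to the same total instead, the median of all genes moved to -0.39 on the log2 scale in KO1, -0.20 in KO2, -0.32 in the KO mean, -0.20 with TGF-β, 0.26 in the rescue mean against KO2, 0.28 in the rescue net of serum and 0.10 in the rescue mean against eGFP. Relative to that shift the KO mean changes were -0.53 for DNMT3B, -0.55 for MSH6, -0.44 for ZMYND11, 0.43 for BRPF1 and 0.50 for GLYR1, close to the values given here. The share of passing genes that were higher went from 50% as deposited to 29.7% after that scaling in the KO mean, from 47.8% to 26.2% in KO1, from 52.8% to 35.3% in KO2, from 40.3% to 20.5% for KO1 against KO2 and from 47.9% to 23.3% with TGF-β. It went from 46.9% to 69.4% in the rescue mean against KO2, from 50.6% to 61.5% against eGFP and from 47.8% to 67.1% net of serum. Genes named as higher in the KO are therefore higher relative to the bulk of genes. Apart from the calls given with each gene, that scaling ended those of BRPF1 (0.21, adjusted p = 0.238) and PHF1 in KO1 (2.21, adjusted p = 0.0559), of PHF1 in the KO mean (1.80, adjusted p = 0.0733), of GLYR1 in the rescue mean against eGFP (-0.41, adjusted p = 0.0566), of DNMT3B between the rescue clones (0.33, adjusted p = 0.0792) and of MORF4L1 (0.28, adjusted p = 0.0816) and ZMYND11 (0.17, adjusted p = 0.0542) for eGFP against WT. It brought PSIP1 in KO1 (-0.91, adjusted p = 0.0485) and in the KO mean (-0.83, adjusted p = 0.0391), ZMYND11 with TGF-β (-0.20, adjusted p = 0.0314), DNMT3A in the rescue mean against KO2 (0.68, adjusted p = 0.0369) and MSH6 net of serum (0.75, adjusted p = 0.0103) past the threshold. Over the 10 readers in all 15 comparisons, 21 of 150 signs turned, none of a change that had passed as deposited, and ZMYND11 with TGF-β was the 1 that passed after turning.

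With TGF-β, DNMT3B rose and GLYR1 fell. These were 2 of 10 readers, where 17.7% of all genes passed, 8.50% higher and 9.22% lower. Set directly against each other, in cultures that were all in 2% serum, the KO mean and TGF-β differed in 5 of 10 readers, where 36.3% of all genes differed. GLYR1 was higher in the KO (background 18.1%) and MSH6, DNMT3A, DNMT3B and ZMYND11 were lower (background 18.2%), with DNMT3B and GLYR1 past 2-fold (background 20.2%).

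**Figure D2:**
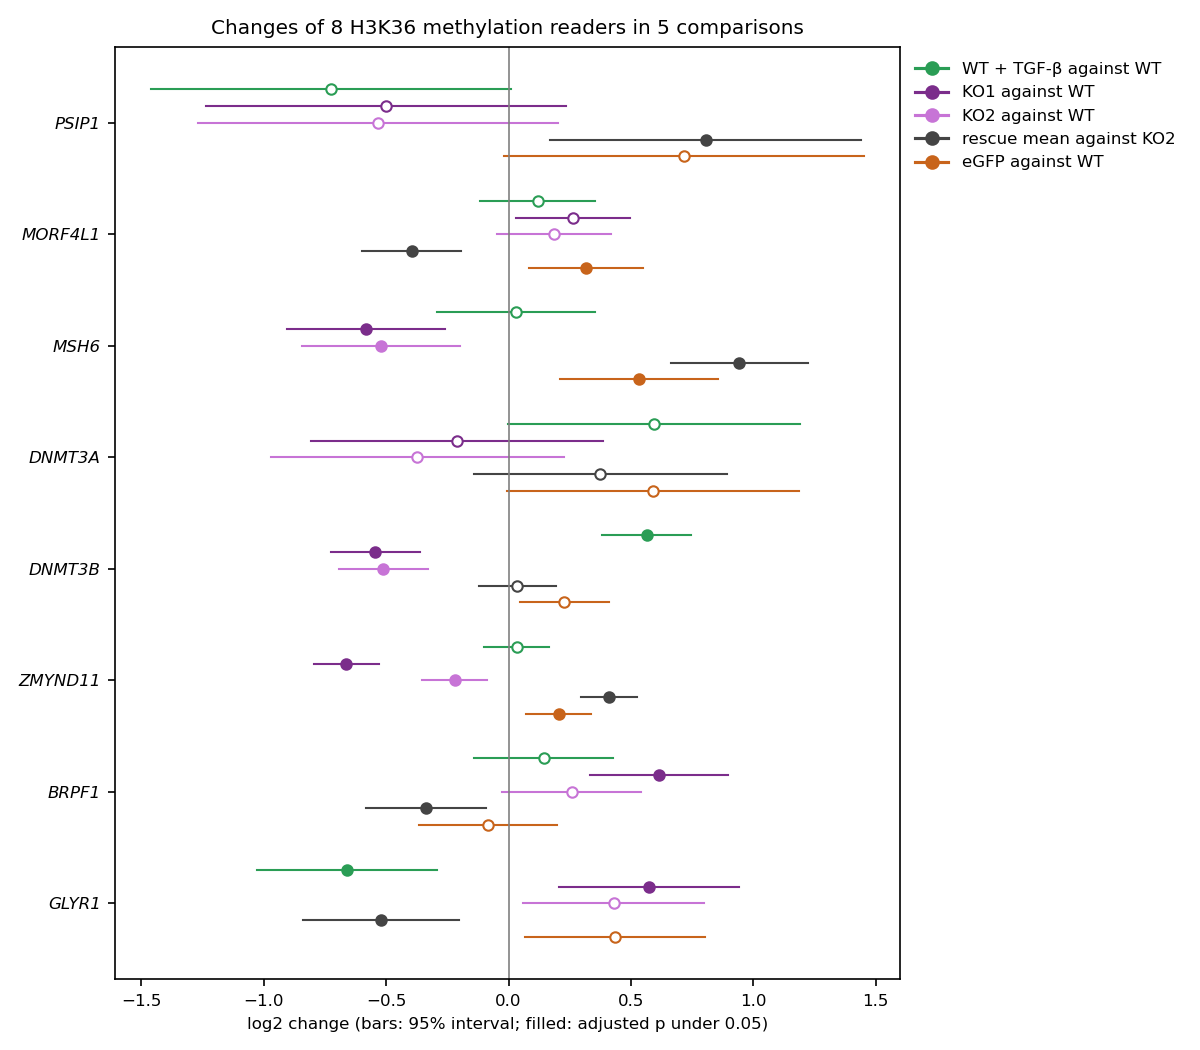
Log2 changes (x axis) of 8 readers (rows; PHF1 and IWS1, with few counts, are left out) in 5 comparisons. Points are limma estimates, filled where adjusted p was under 0.05, and bars are 95% intervals; DNMT3B lies at 0.56 with TGF-β and at -0.54 and -0.51 in KO1 and KO2, and GLYR1 lies at -0.66 with TGF-β and at 0.57 and 0.43.

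With the deposited scaling, the estimates of DNMT3B and GLYR1 had opposite signs, and each turned sign between TGF-β and the KO. For GLYR1 the rise in KO2 did not pass (adjusted p = 0.0775). With libraries scaled to the same total its KO mean change was 0.18 (adjusted p = 0.371). DNMT3B is a de novo DNA methyltransferase whose PWWP domain binds H3K36me3 in gene bodies, and GLYR1 (also called NPAC) is a PWWP protein that binds H3K36me3 and works with the demethylase KDM1B. Of the 10 genes, 5 matched RefSeq promoter entries of GRCh38.p14 (MORF4L1, DNMT3B, GLYR1, PHF1 and IWS1). The 250 bases before the RefSeq start of each gene of this opposite pair are shown because these are the 2 readers that TGF-β changed. Capitals mark CCAAT, the only one of the 7 motif sets searched that both windows held.
DNMT3B, chr20:32779602-32779851, plus strand: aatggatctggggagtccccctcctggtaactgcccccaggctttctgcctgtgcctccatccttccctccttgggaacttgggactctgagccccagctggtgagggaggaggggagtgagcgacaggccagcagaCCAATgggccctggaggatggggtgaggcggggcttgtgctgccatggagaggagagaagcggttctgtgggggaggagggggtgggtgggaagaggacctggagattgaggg
GLYR1, chr16:4847289-4847538, minus strand: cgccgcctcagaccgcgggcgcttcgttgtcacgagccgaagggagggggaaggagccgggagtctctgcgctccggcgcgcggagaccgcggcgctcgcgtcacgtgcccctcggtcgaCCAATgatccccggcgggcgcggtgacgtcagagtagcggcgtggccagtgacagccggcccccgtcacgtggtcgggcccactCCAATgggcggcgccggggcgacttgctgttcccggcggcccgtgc
The DNMT3B window begins at position 32779602, inside the GENCODE span of the gene, which begins further upstream at 32762385. Its letters are therefore not those before the first base of that span, and they describe this RefSeq start only. The DNMT3B window was 64.0% G and C with 3 CpG dinucleotides, and the GLYR1 window was 74.8% with 40, beside medians of 58.0% and 11 over 35116 promoters. The DNMT3B window held 1 CCAAT, starting 113 bases before the start, and the GLYR1 window held 2, starting at 130 and 46 bases before it. The motif was in 32.0% of all promoters. The GLYR1 window also held 2 E-boxes (CACGTG, in 6.34% of promoters) and a GC box (GGGCGG, in 42.6%) that starts on the base after the nearer CCAAT. Neither window held the E2F letters (TTTGGCGC, TTTCGCGC, TTTCCCGC or TTTGGCGG, in 2.83%), ETS (CCGGAAG, 8.52%), NRF1 (GCGCATGCG, 1.64%) or SMAD (GTCTAGAC, 0.182%). Both strands were searched, and a match or its absence is a description of these letters only.

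DNMT3B (chr20:32762385-32809359, plus strand, GRCh38) had 959 and 935 normalized counts in WT and 1374 and 1428 under TGF-β, so that the pairs were well apart (log2 change 0.56, SE 0.08, adjusted p = 2.7e-04). In KO1 it had 636 and 662 and in KO2 656 and 672. All 4 KO libraries lay below both WT libraries (log2 change -0.54, SE 0.08, adjusted p = 1.1e-04 for KO1; log2 change -0.51, SE 0.08, adjusted p = 2.9e-04 for KO2). KO1 and KO2 did not differ beyond their spread (log2 change -0.03, 95% interval -0.21 to 0.15, adjusted p = 0.852). Between the KO mean and TGF-β the difference in DNMT3B was -1.09 on the log2 scale (SE 0.07, adjusted p = 1.8e-08), and it passed without any 1 library. The TGF-β, KO1 and KO2 calls also passed without any 1 library.

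The rescue clones did not return DNMT3B to the WT level. It was 746 and 804 in Rescue1 and 645 and 554 in Rescue2, all below WT, and against KO2 the rescue mean had a log2 change of 0.04 (95% interval -0.12 to 0.19, adjusted p = 0.756). That near-zero value becomes 0.34 (adjusted p = 0.0021) after scaling libraries to equal totals and turns to -0.019 without the first Rescue2 library. Against the eGFP cultures, also in 10% serum and at 1077 and 1141, the rescue mean was lower (log2 change -0.70, SE 0.07, adjusted p = 4.5e-06), a call kept without any 1 library. Rescue1 exceeded Rescue2 (log2 change 0.37, SE 0.08, adjusted p = 0.0412), the only reader that differed between the rescue clones (1 of 10; 1.52% of all genes, 0.884% higher). It no longer passed without the first Rescue1 library (0.43, adjusted p = 0.0836), the second (0.32, adjusted p = 0.228) or the second Rescue2 library (0.27, adjusted p = 0.379). The libraries labelled KO2_Rescue, at 867 and 883, were above KO2 (log2 change 0.40, SE 0.08, adjusted p = 0.00674), which was 1 of 10 readers where 10.3% of all genes passed and 4.96% were higher, although SETD2 mRNA in them was lower than in KO2. Without the first KO2 library that change was 0.38, adjusted p = 0.0563, and without the second KO2_Rescue library 0.38, adjusted p = 0.0561. In a fit of just those 4 libraries DNMT3B did not pass (0.40, adjusted p = 0.053), and MORF4L1 was the 1 reader that did (-0.28, adjusted p = 0.0284).

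DNMT3A (chr2:25227855-25342590, minus strand), the other de novo methyltransferase, whose PWWP domain favours H3K36me2, was lower than DNMT3B per kilobase (19.1 against 218 normalized counts in WT) and noisier. It had 196 and 164 normalized counts in WT, 292 and 251 under TGF-β, 148 and 161 for KO1 and 155 and 123 for KO2. The KO libraries lay below both TGF-β libraries and below both WT libraries (log2 change -0.89, SE 0.24, adjusted p = 0.0095 for the KO mean against TGF-β). Without the first TGF-β library this difference was -0.78, adjusted p = 0.0942. The change with TGF-β missed the threshold (log2 change 0.60, 95% interval -0.00 to 1.19, adjusted p = 0.179), as did that of the KO mean (log2 change -0.29, 95% interval -0.81 to 0.23, adjusted p = 0.379). In the rescue clones it was 188 and 169 and 256 and 127, the latter pair spanning the WT values. The ratio of DNMT3B to DNMT3A counts was 4.90 and 5.71 in WT and 4.70 and 5.68 under TGF-β.

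DNMT1, the maintenance methyltransferase, is no H3K36 reader but shares the DNA methylation list. It had 1864 and 1882 normalized counts in WT, 1149.7 and 1413 under TGF-β (log2 change -0.55, SE 0.15, adjusted p = 0.0215), 725 and 618 for KO1 and 776 and 722 for KO2 (log2 change -1.40, SE 0.13, adjusted p = 8.3e-07 for the KO mean). DNMT3B thus rose and DNMT1 fell under TGF-β, and both fell in the KO. The ratio of DNMT3B to DNMT1 was 0.515 and 0.496 in WT, 1.20 and 1.01 under TGF-β, 0.877 and 1.07 for KO1 and 0.845 and 0.931 for KO2, so that the WT pair was the lower one in each comparison. In the rescue clones DNMT1 was 2158 to 2368 (log2 change 1.59, SE 0.13, adjusted p = 3.4e-07 against KO2). DNMT3B was 746 and 804 in Rescue1, above KO2 at 656 and 672, and 645 and 554 in Rescue2, below KO2. The ratio was 0.346 and 0.361 in Rescue1 and 0.279 and 0.234 in Rescue2, below every other library. Of the 6 tested genes of the DNA methylation list, 3 fell in the KO mean (among them UHRF1, which guides DNMT1 to replicated DNA; log2 change -2.93, SE 0.71, adjusted p = 0.00411), and the same number rose in the rescue mean against KO2. With TGF-β 1 rose, the demethylating enzyme TET3 (log2 change 0.66, SE 0.12, adjusted p = 0.00154), and 1 fell, DNMT1. Over all genes 19.0% fell in the KO mean and 16.2% rose in the rescue mean against KO2. With TGF-β 8.50% of all genes rose and 9.22% fell.

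**Figure D3:**
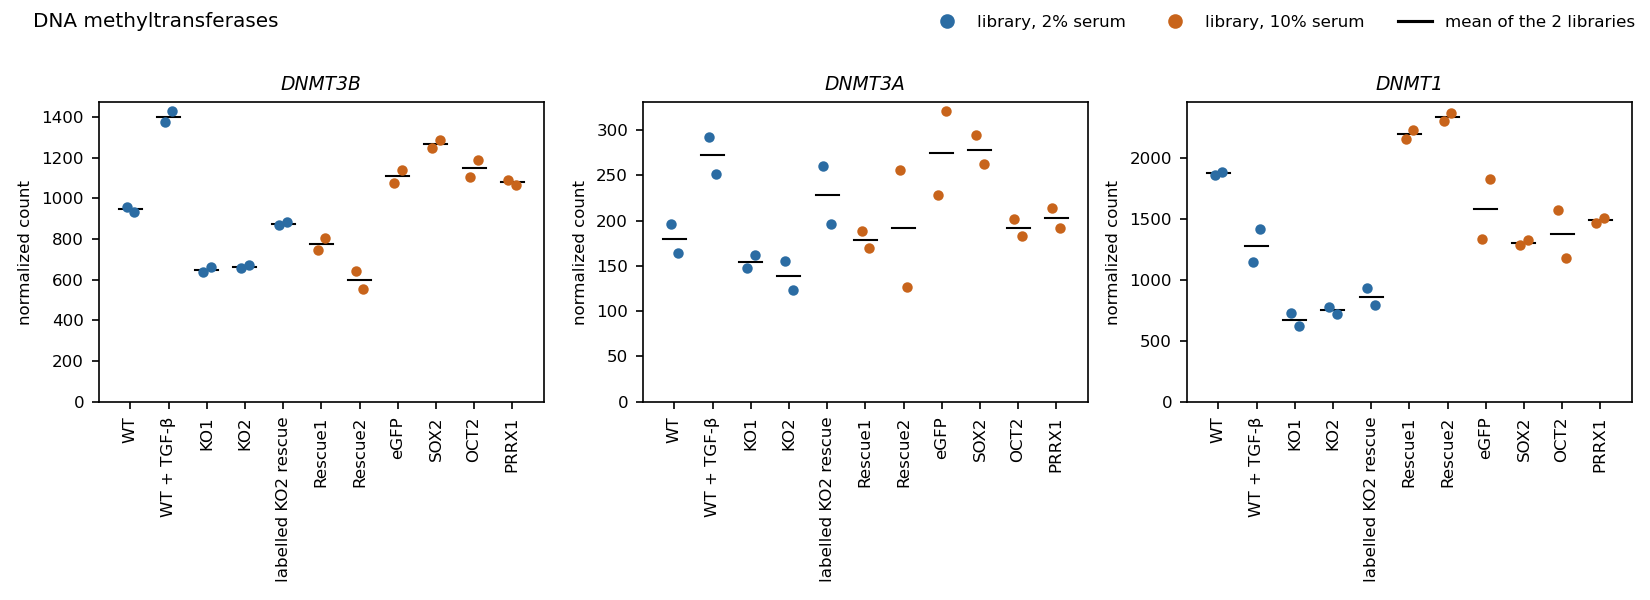
Normalized counts (y axis) of DNMT3B, DNMT3A and DNMT1 in the 11 groups (x axis). Points are libraries (blue, 2% serum; orange, 10% serum) and lines are means of 2; with TGF-β DNMT3B is above WT while DNMT1 is below it, and in Rescue1 and Rescue2 DNMT1 is at 2158 to 2368 while DNMT3B is at 554 to 804.

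GLYR1 (chr16:4803203-4847288, minus strand) had 660.1 and 683 normalized counts in WT and 444 and 406 under TGF-β (log2 change -0.66, SE 0.17, adjusted p = 0.0149). The KO clones lay on the other side of WT, with 1028 and 972 in KO1 (log2 change 0.57, SE 0.17, adjusted p = 0.0153) and 919 and 890.3 in KO2 (log2 change 0.43, 95% interval 0.06 to 0.80, adjusted p = 0.0775). Neither pair overlapped WT, and the KO mean exceeded TGF-β by 1.16 on the log2 scale (SE 0.15, adjusted p = 1.9e-05), a call kept without any 1 library. The separate calls against WT were less steady. The TGF-β change did not pass without the second WT library (-0.64, adjusted p = 0.0814) or the second TGF-β library (-0.60, adjusted p = 0.0959). The KO1 change did not pass without the first WT library (0.55, adjusted p = 0.0672) or the first KO1 library (0.53, adjusted p = 0.0641), and with libraries scaled to the same total it was 0.17 (adjusted p = 0.491). The KO mean change of GLYR1 (log2 change 0.50, SE 0.15, adjusted p = 0.0149) was 0.48, adjusted p = 0.0854 without the first WT library, 0.53, adjusted p = 0.0604 without the second, and 0.18, adjusted p = 0.371 with libraries scaled to the same total.

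In Rescue1 GLYR1 was 566 and 670.4 and in Rescue2 525 and 794, all below KO2 (log2 change -0.52, SE 0.15, adjusted p = 0.0138; -0.22, adjusted p = 0.302 with libraries scaled to the same total), with duplicates of Rescue2 far apart. This call was lost without the first (-0.50, adjusted p = 0.0914) or second KO2 library (-0.54, adjusted p = 0.0642). Against eGFP, at 927 and 888, the rescue mean was also lower (log2 change -0.52, SE 0.15, adjusted p = 0.0151), which was lost without the first (-0.49, adjusted p = 0.111) or second eGFP library (-0.56, adjusted p = 0.0618). KDM1B, the demethylase that GLYR1 assists and 1 of 2 partners tested to pass in the KO mean, had 11.96 and 5.03 normalized counts in WT, 61.2 and 10.7 for KO1 and 35.9 and 75.0 for KO2 (log2 change 2.10, SE 0.70, adjusted p = 0.028 for the KO mean), at levels where few reads decide. Over all genes 38.0% passed in the KO mean. GLYR1 overlaps UBN1 on the opposite strand, and whether the counting used strand is not given in the sources used here.

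MSH6 (chr2:47695530-47810063, plus strand) is the subunit of the MutSα mismatch recognition complex whose PWWP domain binds H3K36me3. It had 1721 and 1529.9 normalized counts in WT, 1283 and 916 for KO1 and 1075 and 1188 for KO2. All 4 KO libraries were below both WT libraries (log2 change -0.58, SE 0.15, adjusted p = 0.00645 for KO1; log2 change -0.52, SE 0.15, adjusted p = 0.0167 for KO2; log2 change -0.55, SE 0.13, adjusted p = 0.00358 for the mean). The size rests partly on single libraries. Without the second KO1 library the KO1 change was -0.34, adjusted p = 0.104, and without the first WT library it was -0.50, adjusted p = 0.0544. The KO2 change was -0.44, adjusted p = 0.109 without the first WT library and -0.45, adjusted p = 0.113 without the first KO2 library, and the mean was -0.47, adjusted p = 0.0509 without the first WT library.

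TGF-β left MSH6 at 1694 and 1618, within the WT range of values (log2 change 0.03, 95% interval -0.29 to 0.35, adjusted p = 0.955), and the KO mean was lower than TGF-β (log2 change -0.58, SE 0.13, adjusted p = 0.00264). In the rescue clones it was 2252 and 1911 and 2081 and 2495, all above KO2 and above WT (log2 change 0.94, SE 0.13, adjusted p = 4.9e-05 against KO2, kept without any 1 library). The transduced WT cultures, in the same 10% serum, had 1936 to 2507, and the rescue mean did not differ from eGFP beyond the spread (log2 change -0.11, 95% interval -0.39 to 0.17, adjusted p = 0.593). That sign turns when libraries are scaled to the same total. The eGFP cultures were themselves above WT in 2% serum (log2 change 0.53, SE 0.15, adjusted p = 0.0169), which was lost without the second WT library (0.45, adjusted p = 0.112) or the second eGFP library (0.44, adjusted p = 0.12). Subtracting the eGFP against WT difference from the rescue against KO2 difference left 0.41 (95% interval -0.02 to 0.84, adjusted p = 0.14). In the rescue comparisons serum and SETD2 cannot be told apart without such a subtraction, which treats the change of vector and serum in WT as its measure. MSH6 is overlapped by FBXO11 on the opposite strand, chr2:47789316-47810063, which reached 1927 normalized counts, so that the limit on strand given for GLYR1 holds here too.

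Of 10 tested mismatch repair genes, 6 fell in the KO mean, where 19.0% of all genes did. In the rescue mean against KO2 6 rose, where 16.2% of all genes did. The largest of both was EXO1, the exonuclease that removes the mismatched strand (log2 change -2.92, SE 0.84, adjusted p = 0.0127 in the KO mean; log2 change 2.70, SE 0.84, adjusted p = 0.022 in the rescue). With TGF-β 3 fell, where 9.22% of all genes did, and none rose.

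Genes of DNA replication moved along with these. The summed count of 16 S phase genes was 8398 and 10844 in WT, 3652 and 3612 under TGF-β, 2563 and 3023 for KO1, 3751 and 4121 for KO2, 10445 and 10928 in Rescue1 and 12328 and 11679.7 in Rescue2. In the eGFP cultures it was 4639.6 and 5790.5, below WT, while MSH6 was above WT. Of 14 S phase genes tested 9 fell in the KO mean and 6 fell with TGF-β, and all 9 mitosis genes tested fell in the KO mean (median log2 change -4.36), 7 of them with TGF-β. Over all genes 19.0% fell in the KO mean and 9.22% with TGF-β. The part of these changes in those of MSH6 and DNMT3B was not tested. In bulk RNA, fewer cells in a given phase or state and less RNA per cell cannot be told apart.

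**Figure D4:**
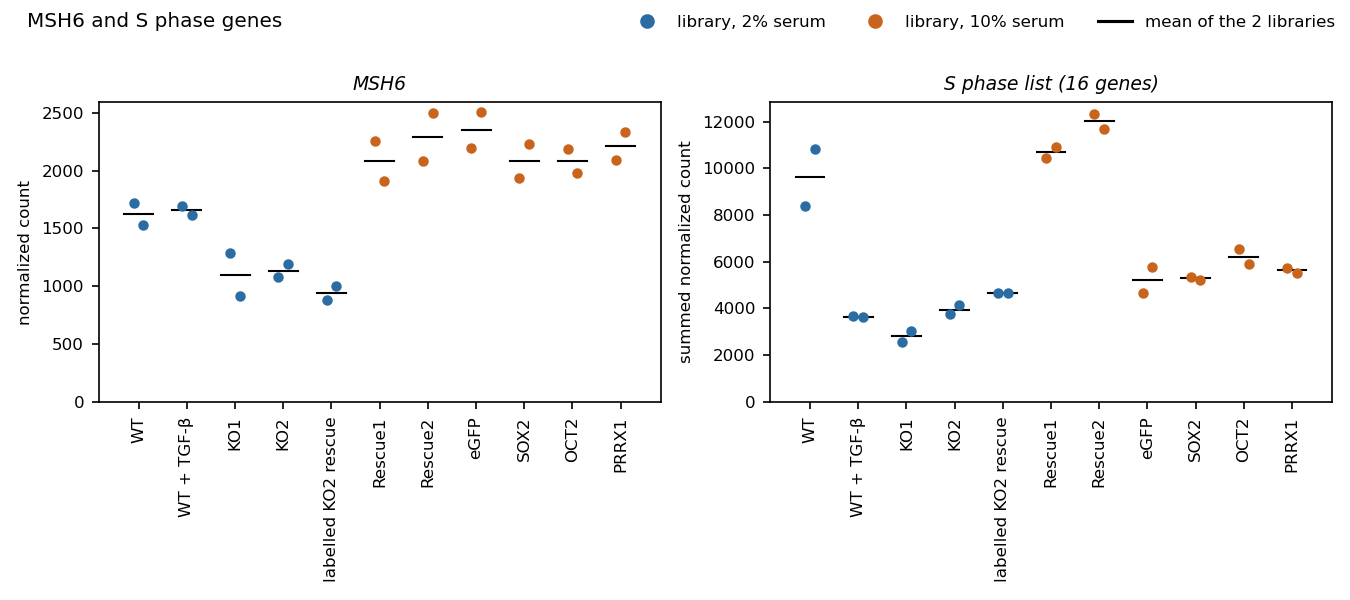
Normalized counts of MSH6 and the summed normalized counts of 16 S phase genes (y axes) in the 11 groups (x axes). Points are libraries (blue, 2% serum; orange, 10% serum) and lines are means of 2; with TGF-β MSH6 stays at 1694 and 1618 while the sum is at 3652 and 3612, against 8398 and 10844 in WT.

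ZMYND11 (chr10:130088-254637, plus strand), which binds H3K36me3 on the histone variant H3.3 and holds back elongation, was the most reproducible of the readers between duplicates. It had 1771 and 1698 normalized counts in WT, 1129.7 and 1062 for KO1 and 1512 and 1466 for KO2. The groups did not overlap, and KO1 was the lowest of all 11 (log2 change -0.66, SE 0.06, adjusted p = 6.8e-07 for KO1; log2 change -0.22, SE 0.06, adjusted p = 0.0143 for KO2). The clones differed from each other (log2 change -0.44, SE 0.06, adjusted p = 2.0e-04), the only reader of 10 that did so, where 16.0% of all genes did and 9.56% were lower in KO1. The KO1 change and the clone difference passed without any 1 library, and the KO2 change did not pass without the first WT library (-0.19, adjusted p = 0.0746) or the second KO2 library (-0.20, adjusted p = 0.0905). TGF-β left it at 1755 and 1798 (log2 change 0.03, 95% interval -0.10 to 0.17, adjusted p = 0.802), which turned to -0.20 (adjusted p = 0.0314) with libraries scaled to the same total, beside the shift of -0.20 of all genes.

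The rescue clones had 1948 and 2009 and 1980.2 and 1975 normalized counts of ZMYND11, above KO2 (log2 change 0.41, SE 0.05, adjusted p = 2.9e-05, kept without any 1 library) and also above WT. The transduced WT cultures spanned 1879.5 to 2036, so that all 12 libraries in 10% serum lay above all 10 in 2% serum. The eGFP cultures exceeded WT (log2 change 0.21, SE 0.06, adjusted p = 0.0236), which did not pass without the second WT library (0.17, adjusted p = 0.112) or the first eGFP library (0.18, adjusted p = 0.139). Net of that difference the rescue change was 0.20 (95% interval 0.03 to 0.38, adjusted p = 0.075), and 0.54 (adjusted p = 1.1e-04) with libraries scaled to the same total.

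PSIP1 (chr9:15464066-15510995, minus strand), whose LEDGF/p75 and p52 products carry a PWWP domain and tether other factors to transcribed chromatin, had 802 and 943 normalized counts in WT, 459.8 and 599.9 under TGF-β, 707 and 533 for KO1 and 410.0 and 881 for KO2. Both TGF-β libraries and both KO1 libraries lay below WT while the KO2 pair spread from below to within it, and neither TGF-β (log2 change -0.73, 95% interval -1.46 to 0.01, adjusted p = 0.184) nor the KO mean (log2 change -0.52, 95% interval -1.15 to 0.12, adjusted p = 0.194) passed. Without the second KO2 library the KO mean change was -0.79, adjusted p = 0.0332. The rescue mean, with 959.7 and 987 in Rescue1 and 1127 and 1143 in Rescue2, was above KO2 (log2 change 0.81, SE 0.30, adjusted p = 0.049) at the edge of the threshold. That call rested on the first KO2 library, without which it was 0.25, adjusted p = 0.633, and it was also lost without the first Rescue1 (0.82, adjusted p = 0.08), second Rescue1 (0.80, adjusted p = 0.0885), first Rescue2 (0.81, adjusted p = 0.084) or second Rescue2 library (0.80, adjusted p = 0.0879). KO2 was in 2% serum and the rescue clones in 10%. The eGFP cultures, also in 10% serum, had 1172 and 1747 (log2 change 0.72, adjusted p = 0.146 against WT). Against eGFP the rescue mean of PSIP1 was -0.44 (95% interval -1.08 to 0.19, adjusted p = 0.299). Net of the eGFP against WT difference the rescue change was 0.09 (95% interval -0.89 to 1.06, adjusted p = 0.915). PSIP1 overlaps SNAPC3 on the opposite strand.

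Of 8 tested partners of PSIP1, 5 fell in the KO mean, where 19.0% of all genes did, 3 fell with TGF-β, where 9.22% did, and 3 rose in the rescue mean against KO2, where 16.2% did. DBF4, the activating subunit of the CDC7 kinase at replication origins, fell most in the KO (log2 change -2.59, SE 0.19, adjusted p = 5.2e-08) and rose most in the rescue (log2 change 2.03, SE 0.19, adjusted p = 1.1e-06). CDCA7L, a nuclear partner of p75, fell most with TGF-β (log2 change -2.01, SE 0.39, adjusted p = 0.0023). The S phase genes given above moved in the same directions.

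MORF4L1 (chr15:78810487-78898139, plus strand), the MRG15 chromodomain protein of the NuA4 acetyltransferase and SIN3B deacetylase complexes, had 7119 and 7279 normalized counts in WT, 7560.0 and 8084 under TGF-β, 10166 and 7343 for KO1 and 7992 and 8377 for KO2. The KO libraries were all above WT, the first KO1 library far above the rest, and the KO mean did not pass (log2 change 0.22, 95% interval 0.02 to 0.43, adjusted p = 0.0768). Without the second KO1 library it was 0.34, adjusted p = 5.3e-04, and with libraries scaled to the same total it turned to -0.093. The rescue clones, at 6492 and 6578 and 5571 and 6289, were the lowest of all groups. They were below KO2 (log2 change -0.40, SE 0.09, adjusted p = 0.00444; without the second KO2 library -0.36, adjusted p = 0.0513; with libraries scaled to the same total -0.091, adjusted p = 0.509) and below eGFP at 9411 and 8540.1 (log2 change -0.53, SE 0.09, adjusted p = 6.1e-04, kept without any 1 library). Net of the eGFP against WT difference the rescue change was -0.71 (SE 0.14, adjusted p = 0.00151; -0.37, adjusted p = 0.0709 with libraries scaled to the same total).

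MORF4L2, the MRGX paralog that enters the same complexes, rose in the KO where MORF4L1 did not pass. It had 3316 and 3748 normalized counts in WT, 7534 and 6264 in KO1, 5898 and 6399.9 in KO2, 3567 and 4121 in Rescue1 and 3432 and 3873 in Rescue2 (log2 change 0.88, SE 0.09, adjusted p = 2.5e-06 for the KO mean; log2 change -0.72, SE 0.09, adjusted p = 2.9e-05 for the rescue mean against KO2). The MORF4L1 to MORF4L2 ratio was 2.15 and 1.94 in WT, 1.35 and 1.17 in KO1 and 1.36 and 1.31 in KO2, with no overlap. TGF-β left it at 2.01 and 2.16. Of 10 tested partners in these complexes, 3 rose and 1 fell in the KO mean, where 19.0% of all genes passed each way. SIN3B, the scaffold of the deacetylase complex, rose most (log2 change 1.27, SE 0.10, adjusted p = 7.8e-08) and EP400, the NuA4 remodelling ATPase, fell (log2 change -0.56, SE 0.08, adjusted p = 4.1e-05), and both moved the other way in the rescue against KO2 (log2 change -0.60, SE 0.10, adjusted p = 2.2e-04; log2 change 0.71, SE 0.08, adjusted p = 5.9e-06).

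BRPF1 (chr3:9731729-9748019, plus strand), the PWWP scaffold of MOZ and MORF acetyltransferase complexes, had 566 and 632 normalized counts in WT, 640.4 and 682 under TGF-β, 800.2 and 1049 for KO1 and 747 and 686 for KO2. All KO libraries were above WT, by most in the second KO1 library (log2 change 0.61, SE 0.13, adjusted p = 0.00171 for KO1; log2 change 0.26, 95% interval -0.02 to 0.54, adjusted p = 0.169 for KO2). The KO mean change (log2 change 0.44, SE 0.11, adjusted p = 0.00709) was 0.36, adjusted p = 0.0841 without the first WT library, and with libraries scaled to the same total it was 0.12 (adjusted p = 0.447). In Rescue1 it was 581 and 577 and in Rescue2 545 and 561, below KO2 (log2 change -0.34, SE 0.11, adjusted p = 0.0332; -0.03, adjusted p = 0.853 with libraries scaled to the same total). This call was lost on leaving out any 1 of the 6 libraries compared, from -0.28, adjusted p = 0.221 without the first KO2 library and -0.40, adjusted p = 0.0713 without the second to -0.34, adjusted p = 0.0585 and -0.34, adjusted p = 0.0628 without either Rescue1 library and -0.33, adjusted p = 0.07 and -0.35, adjusted p = 0.0554 without either Rescue2 library. None of its 6 complex partners passed in the KO mean, where 38.0% of all genes did. In the rescue mean against KO2 the subunit ING4, which reads H3K4me3, fell (log2 change -0.66, SE 0.11, adjusted p = 2.1e-04). The paralog BRPF3 rose in the KO mean (log2 change 0.56, SE 0.11, adjusted p = 0.00111), and BRD1 did not pass (log2 change 0.22, 95% interval 0.02 to 0.42, adjusted p = 0.0722).

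PHF1 (chr6:33410399-33416453, plus strand) brings the Polycomb complex PRC2 to H3K36me3 through its Tudor domain, and few of its reads were counted. It had 3.74 and 17.3 normalized counts in WT, 31.6 and 46.4 under TGF-β, 46.8 and 66.3 for KO1 and 31.4 and 23.6 for KO2. All KO and TGF-β libraries were above both WT libraries, although only KO1 (log2 change 2.61, SE 0.87, adjusted p = 0.0274) and the KO mean (log2 change 2.10, SE 0.76, adjusted p = 0.0395) passed. Without the first WT library, at 3.74 normalized counts, the KO1 change was 1.63, adjusted p = 0.242 and the KO mean 1.13, adjusted p = 0.398. The KO1 change was also lost without the first (2.85, adjusted p = 0.0516) or second KO1 library (2.36, adjusted p = 0.118), and the KO mean without the second KO1 (1.98, adjusted p = 0.0795), first KO2 (2.00, adjusted p = 0.0841) or second KO2 library (2.20, adjusted p = 0.0582). In Rescue1 it was 31.1 and 17.7 and in Rescue2 19.3 and 1.52, overlapping both KO2 and WT. PHF1 had the widest range of group means, 2.99 on the log2 scale, and across the 11 group means the genes whose levels were most like it were NDEL1 (Pearson r = 0.90), PARP6 (0.88) and ZC3HAV1 (0.87), picked from 14584 genes on values that share libraries.

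The other Polycomb-like readers went the other way. PHF19, which shares the Tudor domain, had 687 and 749.5 normalized counts in WT, 209 and 296 under TGF-β (log2 change -1.52, SE 0.30, adjusted p = 0.00216), 199 and 181 for KO1 and 239 and 179.6 for KO2 (log2 change -1.85, SE 0.26, adjusted p = 3.7e-05 for the KO mean), with no overlap with WT. MTF2 also fell in the KO mean (log2 change -0.87, SE 0.33, adjusted p = 0.0491) and was not seen to change with TGF-β (log2 change -0.07, 95% interval -0.88 to 0.73, adjusted p = 0.954). Of 8 tested PRC2 genes, 2 rose and 3 fell in the KO mean, where 19.0% of all genes passed each way. EZH2, the catalytic subunit, fell with TGF-β (log2 change -1.07, SE 0.12, adjusted p = 1.5e-05) and in the KO (log2 change -1.56, SE 0.10, adjusted p = 1.1e-08), and rose in the rescue against KO2 (log2 change 1.45, SE 0.10, adjusted p = 4.2e-08). SUZ12 passed as higher in the KO mean, but its WT libraries were at 51.6 and 0, so its fitted change (3.79) rests on a single library at 0.

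IWS1 (chr2:127436207-127526886, minus strand) connects SETD2 to the elongation factor SPT6, and its counts were too low to compare groups. It had 25.4 and 5.48 normalized counts in WT, 15.04 and 16.7 under TGF-β, 20.8 and 11.4 for KO1, 7.06 and 29.7 for KO2, 46.4 and 40.8 in Rescue1 and 25.0 and 16.2 in Rescue2. The groups in 2% serum overlapped, and the 95% interval of the KO mean change ran from -1.46 to 2.06, wide enough to hold a change of 2-fold either way. SUPT6H, which encodes SPT6, had 629 and 972 in WT, 1034 and 1312 for KO1 and 1368 and 958 for KO2 (log2 change 0.56, SE 0.17, adjusted p = 0.0185 for the KO mean). Of 18 tested elongation genes, 2 rose and 3 fell in the KO mean, SETD2 itself falling most (log2 change -0.87, SE 0.06, adjusted p = 2.0e-08) and CDK9, the kinase of P-TEFb, rising most (log2 change 0.56, SE 0.12, adjusted p = 0.00189). With TGF-β 1 fell, the mRNA export adaptor ALYREF (log2 change -0.44, SE 0.12, adjusted p = 0.0168). Over all genes 19.0% passed each way in the KO mean and 9.22% fell with TGF-β.

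Beyond the 10, 16 further genes for H3K36 readers or PWWP proteins were set beside them. In the KO mean 2 rose (BRPF3 and MORF4L2) and 4 fell (PHF19, NSD2, HDGFL3 and MTF2), where 19.0% of all genes passed each way. The median log2 change of the list was -0.11. NSD2, which places dimethyl H3K36, had 1229 and 1593 normalized counts in WT, 824 and 1008 under TGF-β, 498 and 508 for KO1 and 686 and 615 for KO2. It fell with TGF-β (log2 change -0.62, SE 0.15, adjusted p = 0.0115), fell further in the KO (log2 change -1.29, SE 0.13, adjusted p = 1.9e-06) and rose in the rescue against KO2 (log2 change 1.57, SE 0.13, adjusted p = 3.7e-07), to 1596 to 2228 beside 1395 to 1919 in the transduced WT. With TGF-β 3 of the 16 fell (PHF19, NSD2 and ZMYND8) and none rose, where 9.22% of all genes fell and 8.50% rose. In the rescue against KO2 5 rose and 2 fell, where 16.2% of all genes rose and 18.3% fell. HDGFL2 did not pass in any of these (log2 change -0.11, 95% interval -0.74 to 0.52, adjusted p = 0.811 for the KO mean).

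**Figure D5:**
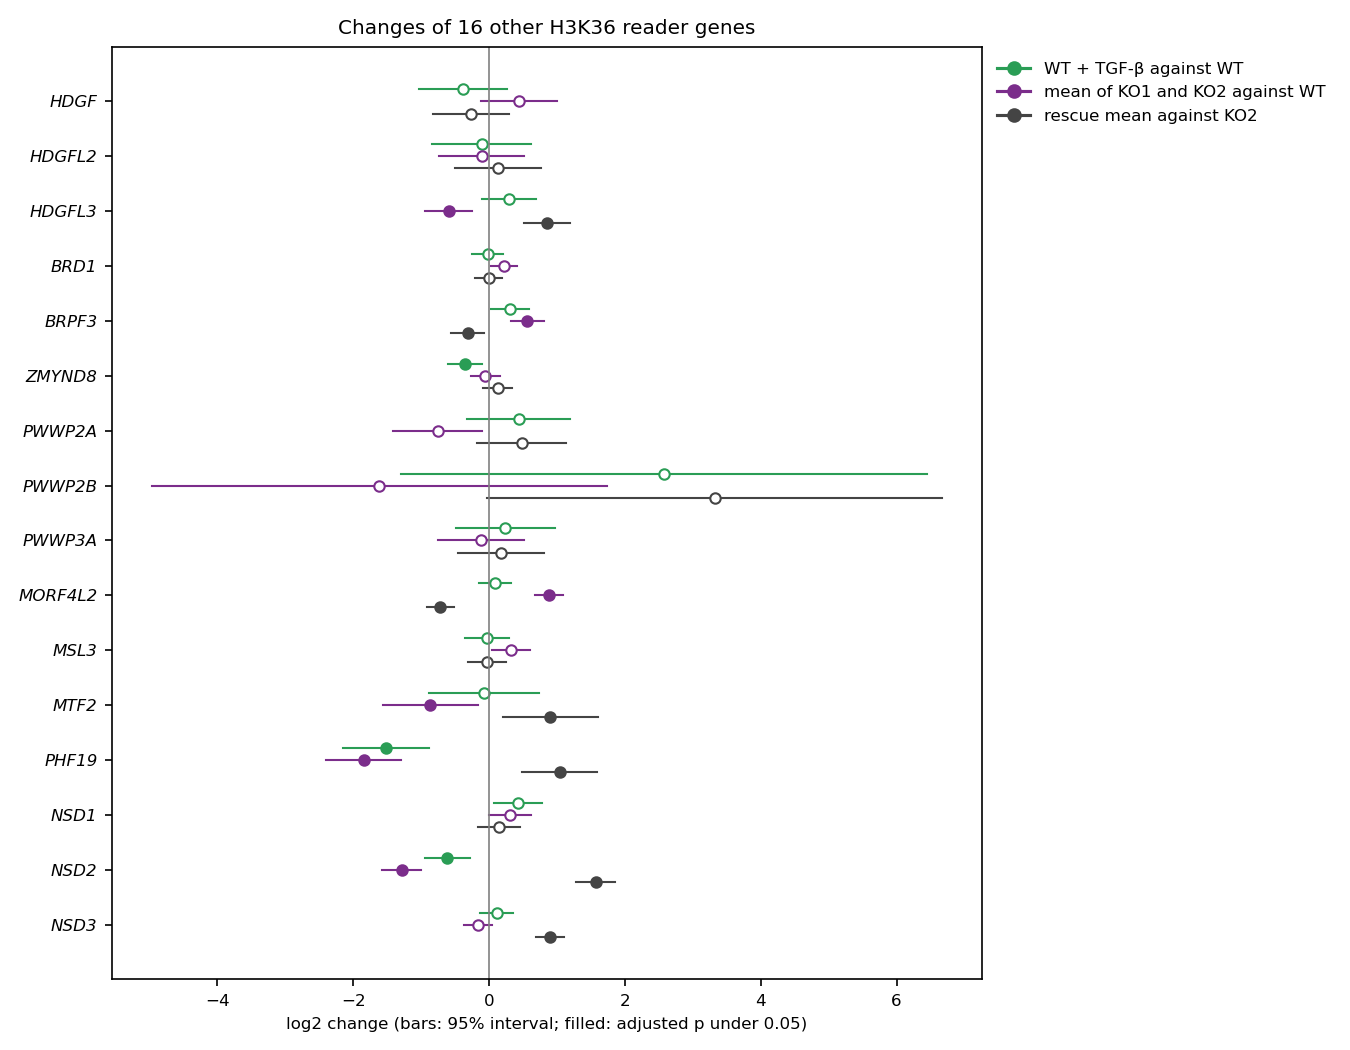
Log2 changes (x axis) of 16 further H3K36 reader genes (rows) with TGF-β, in the KO mean and in the rescue mean against KO2. Points are limma estimates, filled where adjusted p was under 0.05, and bars are 95% intervals; NSD2 lies at -0.62 and -1.29 and then at 1.57, and MORF4L2 at 0.09, 0.88 and -0.72.

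The rescue clones, in 10% serum, differed from KO2, in 2% serum, in 6 of 10 readers, where 34.5% of all genes passed. MSH6, ZMYND11 and PSIP1 were higher (background 16.2%) and MORF4L1, GLYR1 and BRPF1 were lower (background 18.3%). Only MSH6 and ZMYND11 kept the call without each library in turn. Both also passed as higher with eGFP against WT. Net of that difference neither passed as deposited (adjusted p = 0.14 and 0.075), and both passed with libraries scaled to the same total (adjusted p = 0.0103 and 1.1e-04). Against eGFP, which shares the serum, 3 of 10 passed, DNMT3B, MORF4L1 and GLYR1, all lower, where 29.5% of all genes passed and 14.6% were lower. Net of the eGFP against WT difference 2 of 10 passed, MORF4L1 and GLYR1, both lower, where 30.5% passed and 15.9% were lower. With the same total for every library GLYR1 was -0.62, adjusted p = 0.0592 in that contrast. Genes used as fibroblast markers moved with these comparisons: the summed count of 6 of them was 12429 and 829 in WT, 236448 and 223367 in KO1, 102550.0 and 98936 in KO2 and 818 to 1524 in the rescue clones. The paper reports that mesenchymal markers go up in the SETD2 KO RPTEC themselves, so this sum does not by itself show another cell type. The part of these genes in the results was not tested.

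Transduction of WT with the eGFP vector in 10% serum, against WT in 2% serum, passed for 3 of 10 readers, MORF4L1, MSH6 and ZMYND11, where 26.6% of all genes passed, and all 3 were higher (background 13.1%). MORF4L1 was 9411 and 8540.1 with eGFP (log2 change 0.32, SE 0.11, adjusted p = 0.0445). Its call did not pass without the first WT library (0.30, adjusted p = 0.141), the second WT library (0.33, adjusted p = 0.106), the first eGFP library (0.25, adjusted p = 0.257) or the second (0.39, adjusted p = 0.0563). Serum and vector cannot be told apart here. Overexpression of SOX2, OCT2 or PRRX1, transcription factors that the study tested, passed for 0 of 10 readers against eGFP in limma, where 0.0206%, 0.0411% and 0.0480% of all genes passed. At an unadjusted p under 0.05 there was 1 of 10 with SOX2, DNMT3B at 1247 and 1288 (log2 change 0.19, 95% interval 0.01 to 0.37, adjusted p = 0.712), and 0 with OCT2 and PRRX1. With OCT2 the readers' log2 changes ran from -0.49 for DNMT3A to 0.17 for IWS1. They ran from -0.95 for PHF1 to 0.72 for IWS1 with SOX2, and from -0.85 for IWS1 to -0.01 for PSIP1 with PRRX1. PHF1 and IWS1 had few counts.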

How the data were processed

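Poly(A) RNA of 22 RPTEC libraries was prepared with a stranded kit. Per the paper's methods and the submitters' processing notes, the authors quantified reads with Salmon 1.9.0 on Ensembl cDNA of GRCh38 and used DESeq2 1.26.0; how the deposited table was normalized and transformed is not given in the sources used here. The deposited log2 values of 36859 genes share a floor of 11.32 in every library and reach 21.28, the shape of a variance-stabilizing transformation, which was inverted to normalized counts. Approximate depth, from the step between low values, was 7605870 to 18829900 reads per library, and this limits genes with few reads. Groups were taken from the labels.

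All 22 libraries entered 1 limma 3.58.1 fit (R 4.3.3) with a trend and a mean per group, on log2(normalized count + 1), for the 14585 genes that reached 10 normalized counts in 2 or more libraries. Fold changes are on that scale, which understates low genes. Benjamini-Hochberg adjustment ran over all genes tested in each of 15 comparisons, and a gene passed at an adjusted p under 0.05 (2-fold: log2 change over 1). Two-against-two permutation tests cannot reach that threshold, so none was run for single genes. The script was tested on simulated data. All 10 readers are named, together with fixed companions (SETD2, MORF4L2, MTF2, PHF19, DNMT1, BRD1, BRPF3, HDGFL2, SUPT6H and KDM1B) and the largest rise and fall of each gene list; SUZ12, UHRF1, NSD2, HDGFL3 and ZMYND8 are also named by their lists' calls or after their values were seen. One fixed companion gene and a cell type marker are not reported here. The members and lists were chosen with earlier results of these data known. Lists covered further readers, elongation, DNA methylation, mismatch repair, complexes of MORF4L1 and BRPF1, PRC2, partners of PSIP1 and of GLYR1 and ZMYND11, S phase, mitosis and markers of cell types. Positions are from GENCODE 44 on GRCh38; lengths are of the MANE transcript. Figures used Python 3.11.15 and matplotlib 3.10.9. Alternatives were other pseudocounts (0.5 and 5), no low-count filter, a minimum mean of 50, other scalings, only the libraries compared, a replicate block, the deposited log2 values, single rescue clones and each library left out.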

Additional observations from a re-analysis of the deposited data

Results flagged for a closer look

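Among the readers, 2 differed between clones of the same kind under a test of the difference itself. ZMYND11 was lower in KO1 than in KO2 (log2 change -0.44, SE 0.06, adjusted p = 2.0e-04), with 1129.7 and 1062 normalized counts against 1512 and 1466, and the difference passed without any 1 library. DNMT3B was higher in Rescue1 than in Rescue2 (log2 change 0.37, SE 0.08, adjusted p = 0.0412), with 746 and 804 against 645 and 554, and without single libraries it ran from 0.27 to 0.48 and passed only without the first Rescue2 library. Each clone is a single isolate, so clone and the level of SETD2 or of the construct cannot be told apart beyond the SETD2 values given.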

How the results depend on the processing

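The counts of passing readers were within 1.5 times of those reported under most alternatives. When a fit held just the libraries being compared, 0 readers passed with TGF-β, 1 in KO1, 3 in the KO mean, 0 for KO1 against KO2, 0 for Rescue1 against Rescue2 and 0 for eGFP against WT, with fewer libraries to estimate the spread. Passing genes over the whole table then numbered 639 against 2584 with TGF-β, 2808 against 5802 in KO1, 2773 against 4220 in KO2, 3672 against 5549 in the KO mean, 411 against 2334 for KO1 against KO2, 87 against 222 for the rescue clones and 1891 against 3884 for eGFP. For SOX2, OCT2 and PRRX1 the counts over all genes were 1 to 19 in every setting. The Rescue1 against Rescue2 count was also 0 with no filter, with the same total, with quantile normalization, with the replicate block and on the deposited log2 values. It was 4 net of serum with Rescue2 alone, and 1 for eGFP against WT with the same total. Of the results followed in each alternative, signs turned with the same total for MORF4L1 in the KO mean (-0.093), MSH6 (0.0028) and ZMYND11 (0.10) in the rescue mean against eGFP, and DNMT3B (0.15) and BRPF1 (0.084) net of serum, none of which had passed. ZMYND11 against eGFP also turned with quantile normalization (0.0064) and without the first eGFP library (0.010, range without single libraries -0.042 to 0.010), and DNMT3B in the rescue mean against KO2 turned without the first Rescue2 library (-0.019, range -0.019 to 0.090) and with Rescue2 alone (-0.15). The causes were not tested.

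Leaving out each library in turn gave 1 to 2 passing readers with TGF-β, 3 to 6 in KO1, 1 to 3 in KO2, 2 to 6 in the KO mean, 1 to 2 for KO1 against KO2, 4 to 6 for the KO mean against TGF-β, 3 to 5 for the rescue mean against KO2, 2 to 5 against eGFP, 0 to 1 between the rescue clones, 2 to 3 net of serum, 0 to 1 for KO2_Rescue, 0 to 2 for eGFP against WT, and 0 for SOX2, OCT2 and PRRX1. Where an arm kept a single library, it was assumed to vary like the other groups. The share of all genes passing in these fits was not taken, so nothing particular to the readers is read from these counts. With the mean of KO1 and KO2 as the control, 7 of 7 rescue results kept their side of the threshold and direction. The replicate numbers did not pair the samples: over 55 pairs of groups and 8276 genes the correlation of same-numbered deviations had a median of -0.011 and ranged from -0.17 to 0.11. With the replicate block, 56 of 58 reader results were on the same side of the threshold, and the exceptions were DNMT3B between the rescue clones (adjusted p = 0.0556) and MORF4L1 for eGFP against WT (adjusted p = 0.0507). Depth limits PHF1 and IWS1, under 100 normalized counts in every library. Of 92 further reader changes, none of which passed as reported, 16 signs turned with the same total. Calls appeared there in 8 cases outside left-out libraries (besides those given with the comparisons, BRPF1 for the KO mean against TGF-β with a minimum mean of 50, adjusted p = 0.0491, and on the deposited values, adjusted p = 0.0472, and PHF1 for the rescue mean against both KO clones, adjusted p = 0.047, and net of serum with Rescue2 alone, adjusted p = 0.0341). They appeared in 12 on leaving out 1 library: BRPF1 for KO1 against KO2 (0.55, adjusted p = 0.0112) and the KO mean against TGF-β (0.39, adjusted p = 0.00839) without the first KO1 library, MORF4L1 in KO1 (0.50, adjusted p = 2.6e-04), KO1 against KO2 (0.31, adjusted p = 0.0214) and the KO mean against TGF-β (0.22, adjusted p = 0.0114) without the second, PSIP1 in KO2 without its second (-1.08, adjusted p = 0.0396), DNMT3A for the rescue mean against KO2 without the second Rescue2 library (0.63, adjusted p = 0.028) and against eGFP without the first (-0.84, adjusted p = 0.00677), and PHF1 in 4 rescue results without the first Rescue2 or second WT library (adjusted p = 0.0108 to 0.0445).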

Other observations

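Among the accompanying gene lists, 9 of 9 mitosis genes tested fell in the KO mean, where 19.0% of all genes fell. In the rescue mean against KO2 7 of 9 rose, where 16.2% of all genes rose (medians of the list -4.36 and 2.24). The fall was not even between the clones. The summed count of 9 mitosis genes was 986 and 673 in KO1, 2006 and 2471 in KO2 and 11175 and 16088 in WT. CCNA2, the cyclin of S and G2 phase, fell most in the KO mean (log2 change -6.21, SE 1.22, adjusted p = 8.5e-04), and BUB1, a spindle checkpoint kinase, rose most in the rescue (log2 change 3.27, SE 0.94, adjusted p = 0.0137). The CCNA2 mean is not a size shared by both clones. It was -9.62 in KO1, and KO1 was below KO2 by -6.80 (SE 1.41, adjusted p = 0.00415). CCNA2 was also lower with eGFP against WT (log2 change -6.60, SE 1.41, adjusted p = 0.00272). Of 14 renal epithelial markers tested, 3 rose and 4 fell in the KO mean, and of 6 fibroblast markers 3 rose. Over all genes 19.0% passed each way there. None of 3 endothelial markers and none of 2 leukocyte markers tested passed there in limma. In the rescue mean against KO2 1 endothelial marker passed as higher, CDH5, at 0 in both KO2 libraries and 68.7 and 83.8 normalized counts in Rescue1 and 5.75 and 23.6 in Rescue2.

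With eGFP against WT, 7 of 16 further reader genes rose and 1 fell, where 13.1% of all genes rose and 13.5% fell. NSD3 and ZMYND8, both chosen after their values were seen, were among those that rose (log2 change 1.05, SE 0.11, adjusted p = 7.0e-06; log2 change 0.75, SE 0.11, adjusted p = 1.8e-04), and PHF19 fell (log2 change -1.76, SE 0.30, adjusted p = 4.4e-04). Of 14 S phase genes tested, 4 fell and none passed as higher in this comparison.

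For 3 readers chosen after their values were seen, the genes whose 11 group means were most like theirs were TMEM161B for PSIP1 (r = 0.97), MLLT10 and GMPS for MSH6 (0.98 each) and SAA1 for GLYR1 (0.95), out of 14584 genes and on points that share libraries.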
